A study of Mus musculus with 9 samples.

Results

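The genes described here are 10 genes of the IL-1 family and of the inflammasome, namely Il1a, Il1b, Il1rn, Il18, Il1rap, Nlrp3, Pycard, Casp1, Gsdmd and Nek7, taken by their symbols from a table of 40993 genes. All 10 symbols were found in the table once. The genes were chosen by name with their FPKM values and the contrasts between the groups already known. RNA was sequenced from BV2, an immortalized mouse microglial cell line, in 9 libraries. Control cells were non-treated (3 libraries), and the treated cells were given 10 µg/ml (3 libraries) or 100 µg/ml (3 libraries) of MNPs@SiO2(RITC) for 12 h. The particles are silica-coated cobalt ferrite nanoparticles labelled with the dye rhodamine B isothiocyanate, and the labels write the doses as 0.01 and 0.1 µg/µl. All libraries come from 1 cell line with no further label of genotype, and the labels do not say whether the replicates were separate cultures, so the p-values measure the spread between these libraries, which may be technical.

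Interleukin-1 alpha and interleukin-1 beta act through the same receptor, and the interleukin-1 receptor antagonist, made from Il1rn, occupies that receptor without starting a signal. Pro-interleukin-1 beta and pro-interleukin-18 are cut to their active forms by caspase-1, which is switched on in inflammasomes, protein assemblies in which a sensor such as NLRP3 recruits the adaptor ASC. Microglia and macrophages commonly make pro-interleukin-1 beta and NLRP3 in a priming step driven by NF-kB. Particles such as silica are a textbook trigger of the NLRP3 inflammasome. The RNA values below measure transcript levels and not cleavage, assembly or release of protein.

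The deposited unit was FPKM, in which fragments are divided by transcript length and by the library's mapped fragments, so levels can be compared between genes. The steps between low values gave an estimated depth of 11950000 to 14850000 fragments per library. FPKM gives no counts, so the fragment numbers below are estimates. Among microglia and macrophage markers, 9 of 12 averaged 1 FPKM or more, but Cx3cr1, P2ry12 and Sall1, which mark resident microglia, stayed at or under 0.146 FPKM in every library. Neuron markers were listed at 0 in all libraries for the 3 found (Tubb3 was not found). The 4 markers each of astrocytes, oligodendrocytes and neutrophils summed to at most 0.798, 1.44 and 0.197 FPKM in any library. The summed level of the 12 microglia and macrophage markers was 964 to 1063 FPKM in control cells, 955 to 988 at 10 µg/ml and 822 to 878 at 100 µg/ml. Adgre1, a macrophage surface receptor, fell by 0.67 on the log2 scale at 100 µg/ml against control (adjusted p = 0.00224, limma), and the part of this shift in the results below was not tested. In RNA from whole cultures, fewer cells of a kind and less RNA per cell cannot be told apart.

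The promoters of Il1rn and Il1b are shown because Il1rn was the gene of this set that passed the threshold described below and Il1b, like Il1a, encodes a cytokine that its product opposes. RefSeq (GRCm38.p6) held promoters for 9 of the 10 genes, in 12 entries, with none for Gsdmd. The windows are the 250 bases before a start site, 5′ to 3′ on the gene's strand, with motif matches in capitals. The motifs searched on both strands were GGGA and CC with 4 bases of any kind between them (NF-kB-like), TGANTCA (AP-1) and GAGGAAG (PU.1-like), which were found in 17.6%, 6.75% and 10.6% of the 32851 promoter windows of the same length. The Il1rn window before its first start site (chr2:24336610-24336859, plus strand) held 1 NF-kB-like and 1 AP-1 match. The window before its second start site (chr2:24345041-24345290, plus strand) and the Il1b window (chr2:129371140-129371389, minus strand) held none of the 3. A match is a string of letters and not a measured binding site, and the gene's FPKM does not separate transcripts from the different start sites.
Il1rn, first start site: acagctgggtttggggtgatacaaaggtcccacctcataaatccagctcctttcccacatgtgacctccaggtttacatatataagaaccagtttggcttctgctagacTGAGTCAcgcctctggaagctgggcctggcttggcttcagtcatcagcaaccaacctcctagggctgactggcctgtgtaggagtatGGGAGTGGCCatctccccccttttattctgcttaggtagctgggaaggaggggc
Il1rn, second start site: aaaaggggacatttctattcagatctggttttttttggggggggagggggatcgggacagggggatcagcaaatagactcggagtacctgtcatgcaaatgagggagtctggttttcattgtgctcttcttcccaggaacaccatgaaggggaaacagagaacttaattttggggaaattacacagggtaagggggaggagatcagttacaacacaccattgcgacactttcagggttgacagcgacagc
Il1b: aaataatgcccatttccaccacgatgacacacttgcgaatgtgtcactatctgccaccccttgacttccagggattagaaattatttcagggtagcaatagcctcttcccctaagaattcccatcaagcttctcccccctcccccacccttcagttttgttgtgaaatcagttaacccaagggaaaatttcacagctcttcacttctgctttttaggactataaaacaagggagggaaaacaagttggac

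In the deposited annotation (GRCm38), 3 of the genes lie on chromosome 2. Il1rn (ENSMUSG00000026981) runs from 24336853 to 24351494 on the plus strand, and Il1a (ENSMUSG00000027399) from 129299610 to 129309972 and Il1b (ENSMUSG00000027398) from 129364570 to 129371139 neighbour each other on the minus strand. The others are on different chromosomes except Il18 (ENSMUSG00000039217) and Casp1 (ENSMUSG00000025888), both on chromosome 9, with Casp1 from 5298517 to 5307265. Nlrp3 (ENSMUSG00000032691) lies on chromosome 11 from 59541568 to 59566956, Nek7 (ENSMUSG00000026393) on chromosome 1 from 138483837 to 138620218 and Pycard (ENSMUSG00000030793) on chromosome 7 from 127992103 to 127993867. Gsdmd (ENSMUSG00000022575) lies on chromosome 15 from 75862339 to 75867404 and Il1rap (ENSMUSG00000022514) on chromosome 16 from 26581704 to 26730117. The deposited Il18 gene runs from 50575273 to 50581837, whereas RefSeq places its start site at 50554700, so that the deposited interval does not include the RefSeq start.

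The 10 genes spanned a wide range of levels. By the mean over the 9 libraries, the order was Il1rn (41.9 FPKM), Nek7 (33.0), Casp1 (21.8), Gsdmd (16.4), Nlrp3 (8.51), Il1a (6.78), Il18 (1.08), Il1b (0.5996), Il1rap (0.593) and Pycard (0.0362). The ranges over the 9 libraries overlapped between neighbours for Il1rn and Nek7, Casp1 and Gsdmd, Nlrp3 and Il1a, Il18 and Il1b, and Il1b and Il1rap, and were apart for the other neighbours. Within a group, Casp1 and Gsdmd were apart in all 3 groups, whereas Il1rn and Nek7 overlapped in control cells and at 10 µg/ml and were apart at 100 µg/ml. Thus the antagonist, the kinase that binds NLRP3 and caspase-1 led the order, and the secreted cytokine Il1b and the adaptor Pycard were near its end.

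Testing required a mean of 1 FPKM or more, which 7 of the 10 genes had, while Il1b, Il1rap and Pycard did not. Values were compared as log2(FPKM + 1) with limma across all 11161 genes tested, two-sided, and p-values were adjusted over all of them. On this scale the fold changes of low genes are understated. At 100 µg/ml against control, 1 of the 7 genes passed the adjusted threshold of 0.05 (Il1rn, higher), where 2.11% of all genes tested did (0.708% higher and 1.41% lower) and 19.4% had an unadjusted p under 0.05. The libraries of the groups did not overlap for 1 of the 7 genes (Il1rn) at 100 µg/ml against control, for 0 at 10 µg/ml against control and for 2 (Il1rn and Il1a) between the doses, where this was so for 23.8%, 10.7% and 19.4% of all genes tested. At 10 µg/ml against control, limma called 0 of the 7 genes, of which 0 had an unadjusted p under 0.05, and 0% of all genes, of which 366 (3.28%) had an unadjusted p under 0.05. At 100 against 10 µg/ml, 0 of the 7 genes passed and Il1rn and Il1a had an unadjusted p under 0.05, where 0.851% of all genes passed (0.215% higher and 0.636% lower) and 14.3% had an unadjusted p under 0.05. The median log2 fold change of the 7 genes was -0.09, 0.00 and -0.08 in these comparisons, beside 0.00 over all genes tested in each. The 10 genes were chosen with such values known, so the adjusted p-values place each gene among all genes tested and are no independent support.

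**Figure D1:**
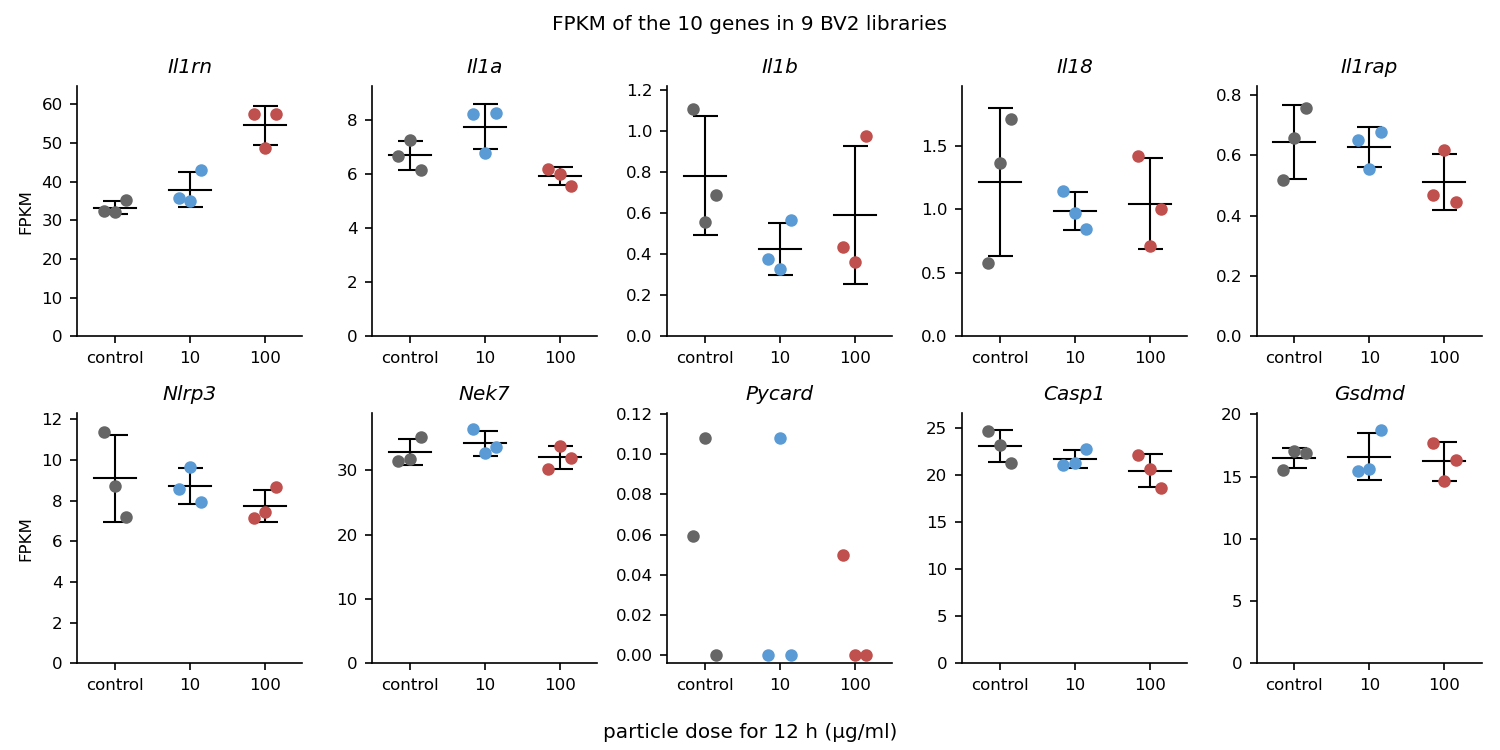
FPKM (y axis, from 0, with its own scale in each panel) of the 10 genes in the 3 libraries each of control cells and of cells treated for 12 h at 10 and 100 µg/ml (x axis); points are libraries, long bars the mean and short bars 1 SD, which are left out for Pycard. The Il1rn libraries at 100 µg/ml sit between 48.8 and 57.6 FPKM, above the other 6, while the treated libraries of the other 9 genes overlap with control.

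Il1rn, the receptor antagonist, was higher at 100 µg/ml. Its FPKM was 32.4, 32.1 and 35.2 in control cells, 35.8, 35.0 and 43.0 at 10 µg/ml and 57.4, 48.8 and 57.6 at 100 µg/ml. All 3 libraries at 100 µg/ml were above all 6 others, whereas those at 10 µg/ml overlapped with control cells. The estimated depth behind these values was 979 to 2110 fragments per library. The mean went from 33.2 ± 1.69 FPKM (SD, n = 3) in control cells to 54.6 ± 5.06 FPKM (SD, n = 3) at 100 µg/ml, a ratio of 1.64. The log2 fold change was 0.70 (SE 0.09, 95% confidence interval 0.48 to 0.91, adjusted p = 0.0107, limma). The adjusted p was 0.0569 without control replicate 1, 0.0649 without control replicate 2 and 0.0506 in a fit of just the 6 libraries compared, and under 0.05 in the other 16 of 19 fits. At 10 µg/ml the mean was 37.9 ± 4.43 FPKM (SD, n = 3), with a log2 fold change against control of 0.18 (SE 0.09, adjusted p = 1, limma). Between the doses the log2 fold change was 0.52 (SE 0.09, 95% confidence interval 0.30 to 0.73), where the adjusted p was 0.0513 (limma) and was under 0.05 in 5 of the 19 fits.

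**Figure D2:**
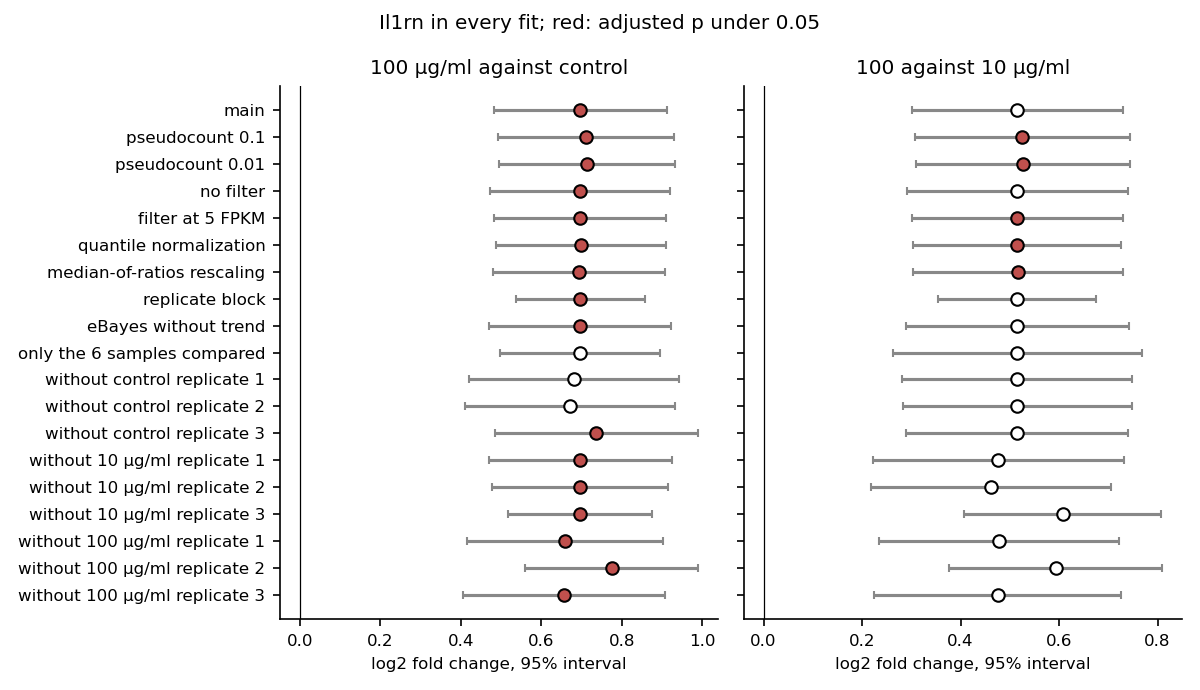
Log2 fold change of Il1rn (x axis; point) with its 95% confidence interval (bar) in each of the 19 fits (y axis), for 100 µg/ml against control and for 100 against 10 µg/ml; red points have an adjusted p under 0.05. The fold change stays between 0.66 and 0.77 against control and between 0.46 and 0.61 between the doses, while the adjusted p crosses 0.05 in some fits.

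Il1a, whose product can act without cleavage by caspase-1, was present at a lower level. Its FPKM was 6.67, 7.24 and 6.14 in control cells, 8.21, 6.79 and 8.24 at 10 µg/ml and 6.20, 5.998 and 5.55 at 100 µg/ml. All libraries at 100 µg/ml were below all libraries at 10 µg/ml, and they overlapped with control cells. The log2 fold change between the doses was -0.33 (SE 0.09, 95% confidence interval -0.54 to -0.13), with an unadjusted p of 0.00561 and an adjusted p of 0.153 from limma. Against control it was -0.15 at 100 µg/ml (SE 0.09, adjusted p = 0.417) and 0.18 at 10 µg/ml (SE 0.09, adjusted p = 1), neither of which passed.

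Set within each library, the antagonist exceeded Il1a throughout. The ratio of Il1rn to Il1a FPKM was 4.87, 4.43 and 5.73 in control cells, 4.36, 5.16 and 5.22 at 10 µg/ml and 9.26, 8.13 and 10.4 at 100 µg/ml. The 3 ratios at 100 µg/ml lay above the other 6, and those of control cells and of 10 µg/ml overlapped. The means were 5.01 ± 0.662, 4.91 ± 0.482 and 9.26 ± 1.12 (SD, n = 3 each).

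**Figure D3:**
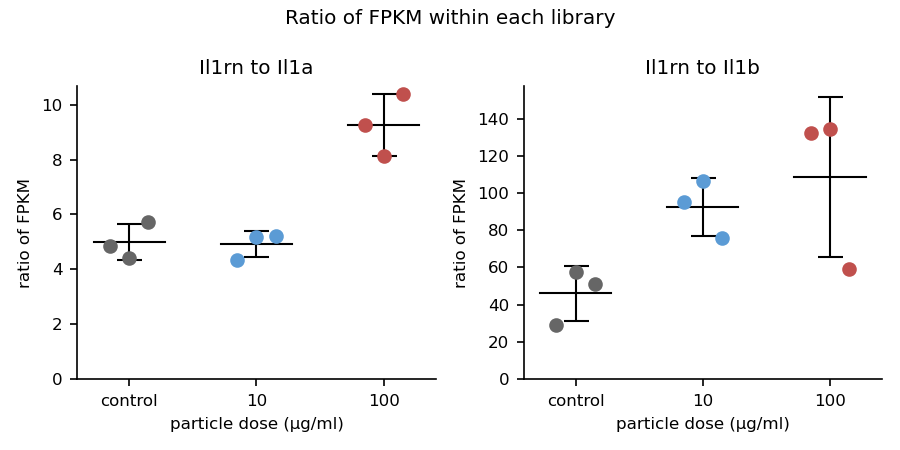
Ratio of Il1rn FPKM to Il1a FPKM (left) and to Il1b FPKM (right) in each library (points) of control cells and of cells at 10 and 100 µg/ml (x axis), with the mean (long bar) and 1 SD (short bars). The ratio to Il1a lies between 8.13 and 10.4 at 100 µg/ml and between 4.36 and 5.73 in the other 6 libraries, while the lowest ratio to Il1b at 100 µg/ml (59.0) is close to the highest in control cells (57.7).

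Il1b, the cytokine whose active form needs caspase-1, was near the lower limit of the measurement. Its FPKM was 1.11, 0.555 and 0.687 in control cells, 0.376, 0.328 and 0.569 at 10 µg/ml and 0.435, 0.363 and 0.977 at 100 µg/ml. The 3 groups overlapped, and high dose replicate 3 was over 2 times the level of the other libraries at 100 µg/ml. These values rest on about 5.88 to 18.3 fragments per library (median 10.03), so that a few fragments move the value. In a fit with no filter on low values, the log2 difference against control at 100 µg/ml was -0.17 (SE 0.17, confidence interval -0.57 to 0.22, adjusted p = 0.707, limma). At 10 µg/ml it was -0.32 (SE 0.17, confidence interval -0.71 to 0.08, adjusted p = 1). Neither difference passed, and whether depth was the reason was not tested. The intervals are on the log2(FPKM + 1) scale, which understates the fold changes of low genes. The ratio of Il1rn to Il1b was 46.1 ± 14.9 in control cells, 92.5 ± 15.7 at 10 µg/ml and 108.5 ± 42.9 at 100 µg/ml (SD, n = 3 each), and ranged from 59.0 to 134 at 100 µg/ml.

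Il18, another cytokine cut by caspase-1, was at 0.575, 1.36 and 1.71 FPKM in control cells, 1.14, 0.975 and 0.849 at 10 µg/ml and 1.42, 0.711 and 1.01 at 100 µg/ml. The libraries of the 3 groups overlapped, and about 4.92 to 16.6 fragments stood behind each value. The log2 fold change at 100 µg/ml against control was -0.09 with a 95% confidence interval from -0.59 to 0.40 (adjusted p = 0.853, limma), which leaves room for a change in either direction.

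Il1rap, the accessory chain that the receptors for interleukin-1, interleukin-33 and interleukin-36 share, was at 0.517, 0.657 and 0.757 FPKM in control cells, 0.649, 0.553 and 0.678 at 10 µg/ml and 0.469, 0.616 and 0.445 at 100 µg/ml. The groups overlapped, with about 27.2 to 47.2 fragments per library. Without the filter, the log2 difference at 100 µg/ml against control was -0.12 (SE 0.07, adjusted p = 0.526, limma). The ligand-binding chain Il1r1, named after its values were seen, was lower still, at 0.145 to 0.204 FPKM in control cells, 0.202 to 0.223 at 10 µg/ml and 0.0840 to 0.111 at 100 µg/ml, and was below the filter.

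Nlrp3, the sensor, was detected at 11.4, 8.71 and 7.18 FPKM in control cells, 8.55, 9.65 and 7.93 at 10 µg/ml and 7.13, 7.42 and 8.65 at 100 µg/ml. The control libraries spread more widely than either treated group, and all 3 groups overlapped. Its log2 fold change was -0.19 at 100 µg/ml (SE 0.15, 95% confidence interval -0.52 to 0.14, adjusted p = 0.523, limma) and -0.04 at 10 µg/ml (SE 0.15, adjusted p = 1). Without control replicate 1, its highest library, the value at 100 µg/ml was -0.03.

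Nek7, a kinase that binds NLRP3 and is needed for its activation, was at 31.5, 31.8 and 35.2 FPKM in control cells, 36.4, 32.7 and 33.7 at 10 µg/ml and 30.3, 33.8 and 32.0 at 100 µg/ml. The groups overlapped, and the log2 fold change at 100 µg/ml was -0.03 with a 95% confidence interval from -0.19 to 0.12 (adjusted p = 0.826, limma).

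Pycard, which encodes the adaptor ASC, was at the limit of detection. It was listed at 0.0595, 0.108 and 0 FPKM in control cells, 0, 0.108 and 0 at 10 µg/ml and 0.0499, 0 and 0 at 100 µg/ml. The 4 values above 0 correspond to about 1.02 to 2.08 fragments each, and about 6.21 fragments over all 9 libraries. A value of 0 in this table is only listed as such, since 9 other genes ranged from 0 in a library to over 1000 FPKM in another. No fold change is given. The adaptor was thus at a mean of 0.0362 FPKM over the 9 libraries beside 8.51 for Nlrp3 and 21.8 for Casp1, the sensor and the protease that it links.

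Casp1, the protease, was at 24.7, 23.2 and 21.3 FPKM in control cells, 21.1, 21.3 and 22.8 at 10 µg/ml and 22.1, 20.6 and 18.7 at 100 µg/ml. The groups overlapped, although the lowest of the 9 libraries was at 100 µg/ml and the highest in control cells. The log2 fold change at 100 µg/ml against control was -0.17 (SE 0.08, 95% confidence interval -0.34 to 0.01, adjusted p = 0.288, limma). Gsdmd, whose product forms the membrane pore of pyroptosis after cleavage by caspase-1, was at 15.6, 17.0 and 16.9 FPKM in control cells, 15.4, 15.6 and 18.8 at 10 µg/ml and 17.7, 14.6 and 16.4 at 100 µg/ml. Here too the groups overlapped, with a log2 fold change of -0.02 (95% confidence interval -0.24 to 0.19, adjusted p = 0.913, limma). Between the doses the 5 tested genes other than Il1rn and Il1a had log2 fold changes from -0.15 (Nlrp3) to 0.03 (Il18), with adjusted p from limma of 0.584 (Nek7) or more.

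**Figure D4:**
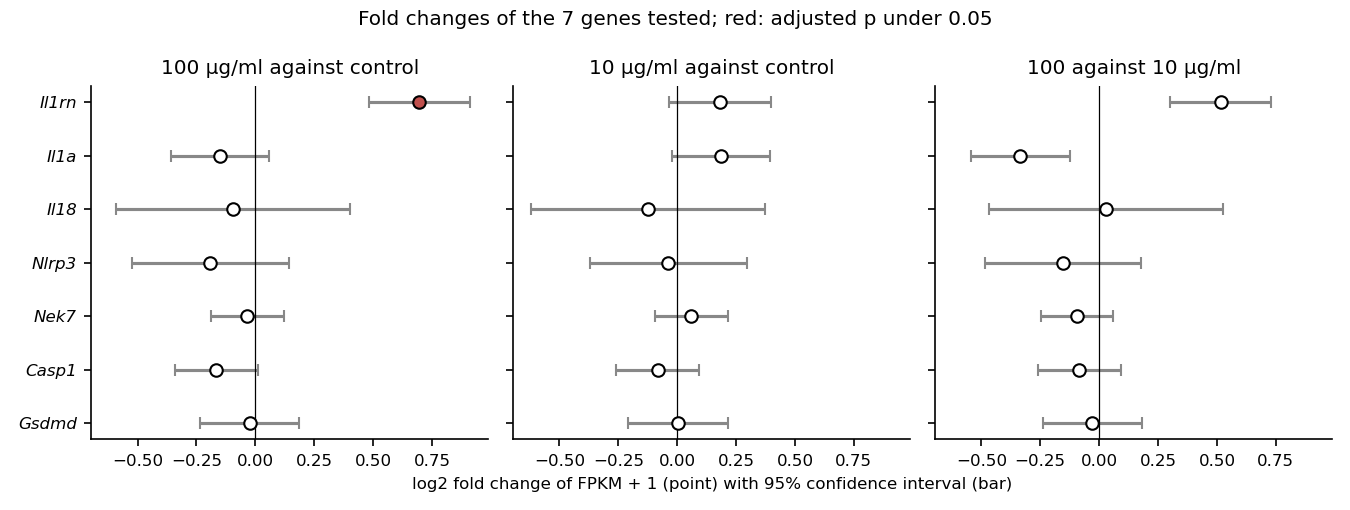
Log2 fold change of FPKM + 1 (x axis; point) with its 95% confidence interval (bar) for the 7 genes tested (y axis) in the 3 comparisons; red points have an adjusted p under 0.05. Il1rn at 100 µg/ml against control is the red point, and the interval of Il18 is the widest of the 7.

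The genes whose course over the 9 libraries was most like that of Il1rn were taken by the root mean square difference of their log2(FPKM + 1), each centred on its control mean. The closest were Dusp5 (0.08), a phosphatase of MAP kinases, Oasl1 (0.11), an interferon-induced protein, Spsb4 (0.11), Atg9b (0.11), a homologue of an autophagy protein, and Yrdc (0.11), a tRNA-modifying enzyme. Dusp5 went from 5.87 ± 0.713 FPKM in control cells to 6.60 ± 0.395 at 10 µg/ml and 9.93 ± 1.04 at 100 µg/ml, and Oasl1 from 32.9 ± 2.003 to 35.6 ± 2.06 and 56.6 ± 4.30 (SD, n = 3 each). Both stayed near the control level at 10 µg/ml and were higher at 100 µg/ml. For Il1b, close genes were Ttc39a (0.10), Mrps18c (0.11), which encodes a mitochondrial ribosomal protein, RP23-402K24.2 (0.14) and Cwc22 (0.15), a splicing factor, beside a median of about 10.03 fragments per library for Il1b itself. The likeness over the same 9 libraries is a description of values.

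Around these 10 genes, 84 further genes of the pathway were listed in 7 groups, of which 53 were tested and 8 were listed at 0 in every library. At 100 µg/ml against control, 4 of the 53 passed (7.55%, beside 2.11% of all genes tested), with Txnip and Rela higher and Nfkbiz and Icam1 lower. At 10 µg/ml against control, limma called 0 of the 53, and 2 had an unadjusted p under 0.05, beside 3.28% of all genes tested. At 100 against 10 µg/ml, 3 of the 53 passed (5.66%, beside 0.851% of all genes tested), namely Txnip, Nfkbiz and Icam1. The lists were chosen with earlier results of these data known, so these shares are a description and no independent support.

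**Figure D5:**
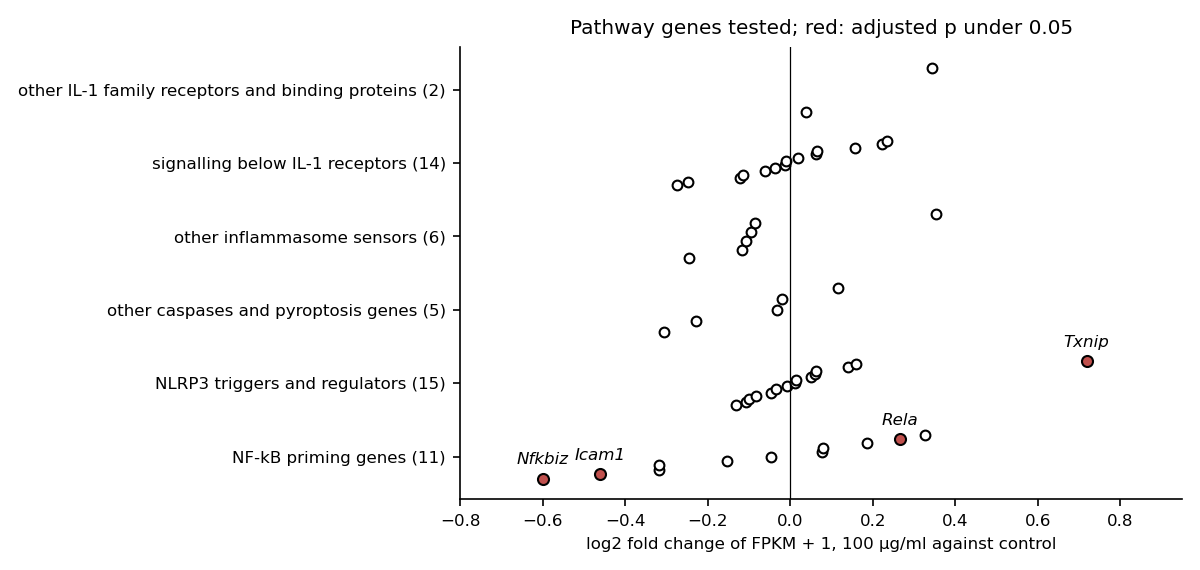
Log2 fold change of FPKM + 1 at 100 µg/ml against control (x axis) of the 53 further pathway genes tested, by list (y axis, number tested in parentheses); red points have an adjusted p under 0.05 and carry their names. Txnip and Rela lie above 0, Nfkbiz and Icam1 below 0, and the genes in white did not pass.

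Among the other ligands of the IL-1 family, 0 of 6 reached the filter and 4 were listed at 0 in all 9 libraries. Il33 and Il36g were each above 0 in 1 library, at 0.0280 and 0.0497 FPKM. Of the other receptors and binding proteins, 2 of 10 were tested and neither passed. Il1rl1, the receptor for interleukin-33, had 3.10 to 4.38 FPKM in control cells and 4.003 to 5.59 at 100 µg/ml (log2 fold change 0.34, adjusted p = 0.220, limma). Il18rap, the accessory chain of the interleukin-18 receptor, had 1.77 to 2.55 FPKM over all libraries and a log2 fold change of 0.04 (adjusted p = 0.899, limma).

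The signalling genes below the receptors were all 14 tested, and none passed in any comparison with limma (unadjusted p under 0.05 for 2 of them at 100 µg/ml against control, 0 at 10 µg/ml against control and 1 between the doses). Over all genes tested, the unadjusted shares in these comparisons were 19.4%, 3.28% and 14.3%. Chuk, a kinase of the IKK complex, had 46.3 to 57.5 FPKM and did not pass at 100 µg/ml against control (log2 fold change 0.16, adjusted p = 0.284). Myd88, the adaptor of IL-1 and Toll-like receptors, had 38.9 to 54.4 FPKM and a log2 fold change of -0.25 (adjusted p = 0.174).

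Other inflammasome sensors were tested in 6 of 12 cases, with 0 past the threshold and 2 with an unadjusted p under 0.05 at 100 µg/ml against control. Over all genes tested, 2.11% passed and 19.4% had an unadjusted p under 0.05 in that comparison. Aim2, the sensor of cytosolic DNA and like NLRP3 a partner of ASC, was at 52.2, 50.2 and 48.4 FPKM in control cells, 56.2, 45.6 and 52.6 at 10 µg/ml and 61.9, 69.4 and 62.3 at 100 µg/ml. Its libraries at 100 µg/ml were above the other 6, with a log2 fold change against control of 0.35 (SE 0.08) and an adjusted p of 0.0657 (limma), which did not pass. Naip2, which senses bacterial rod proteins, had 7.15 to 9.70 FPKM and a log2 fold change of -0.09 (adjusted p = 0.658). Of the other caspases and pyroptosis genes, 5 of 9 were tested, and none had an unadjusted p under 0.05 with limma in any comparison. Ninj1, which acts in the rupture of the membrane, had 92.7 to 128 FPKM and Casp8 21.5 to 23.8 FPKM.

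Triggers and regulators of NLRP3 were tested in 15 of 19 cases. Txnip passed at 100 µg/ml against control and between the doses, where 2.11% and 0.851% of all genes tested did. Txnip encodes a thioredoxin-binding protein that has been reported to bind NLRP3, and also responds to glucose. It was at 93.8, 97.5 and 89.5 FPKM in control cells, 99.9, 115 and 109 at 10 µg/ml and 157, 158 and 149 at 100 µg/ml. The 3 groups did not overlap with each other. Over all genes tested, 23.8% did not overlap at 100 µg/ml against control, 10.7% at 10 µg/ml against control and 19.4% between the doses. The log2 fold change was 0.72 at 100 µg/ml against control (SE 0.06, adjusted p = 0.00224, limma) and 0.52 between the doses (SE 0.06, adjusted p = 0.0133), and 0.20 at 10 µg/ml against control (SE 0.06, adjusted p = 1), which did not pass. Between the doses, its adjusted p was 0.0655 without low dose replicate 1, 0.0543 without low dose replicate 3, 0.0514 without high dose replicate 2 or 3, and 0.0864 in a fit of the 6 libraries compared. The lysosomal proteases Ctsb and Ctsl, whose release is linked to NLRP3 activation by particles, were the most abundant of the list, at 1125 to 1211 and 662 to 790 FPKM, with log2 fold changes of 0.01 and -0.03 at 100 µg/ml against control (adjusted p of 0.914 and 0.848, limma).

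Of the 14 NF-kB priming genes, 11 were tested, and 1 rose and 2 fell past the threshold at 100 µg/ml against control. Over all genes tested, 0.708% rose and 1.41% fell past it. Rela, a subunit of NF-kB, was at 20.9, 20.8 and 22.1 FPKM in control cells, 22.5, 22.7 and 24.1 at 10 µg/ml and 26.2, 25.7 and 25.4 at 100 µg/ml. Its groups did not overlap, but the rise against control of 0.27 on the log2 scale (SE 0.05, adjusted p = 0.0370, limma) passed in 9 of 19 fits, and the adjusted p was between 0.0374 and 0.153 when single libraries were left out. The highest of these was without control replicate 2, and a fit of the 6 libraries compared gave 0.112.

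Nfkbiz encodes an atypical member of the IkB family that acts in the nucleus on secondary NF-kB targets. It was at 31.6, 32.3 and 30.6 FPKM in control cells, 34.4, 32.2 and 32.2 at 10 µg/ml and 19.2, 20.5 and 21.6 at 100 µg/ml. All libraries at 100 µg/ml were below the other 6, and control and 10 µg/ml overlapped. Its log2 fold change was -0.60 against control (SE 0.06, adjusted p = 0.00351, limma) and -0.66 against 10 µg/ml (SE 0.06, adjusted p = 0.00424), the latter with an adjusted p of 0.0606 in a fit of the 6 libraries compared.

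Icam1, an adhesion molecule and classical NF-kB target, was at 21.7, 21.7 and 20.04 FPKM in control cells, 19.6, 18.9 and 19.2 at 10 µg/ml and 15.1, 14.9 and 15.3 at 100 µg/ml. The groups did not overlap. Its log2 fold change was -0.46 at 100 µg/ml against control (SE 0.05, adjusted p = 0.00579, limma) and -0.33 against 10 µg/ml (SE 0.05, adjusted p = 0.0293), the latter between 0.0291 and 0.149 when single libraries were left out, with the highest value without low dose replicate 1. In fits of the 6 libraries compared, the adjusted p of Icam1 was 0.0610 against control and 0.126 between the doses. The chemokines Ccl3 and Ccl4 were the most abundant of the priming genes, at 217 to 283 and 133 to 210 FPKM, with log2 fold changes of 0.08 and 0.19 (adjusted p of 0.710 and 0.460, limma). Both had their highest library in high dose replicate 1.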

How the data were processed

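RNA from BV2 cells was sequenced in 9 libraries in 3 groups, as the labels give them. A stranded kit and oligo(dT) selection were used. The authors filtered low-quality reads, aligned with TopHat and used Cufflinks 2.1.1 and Ensembl release 77 (GRCm38) to compute the FPKM that they deposited, correcting for fragment bias and multiply mapped reads. Their comparisons with Cuffdiff were not repeated. Reads that overlapping or similar genes share can move an FPKM value.

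FPKM was transformed to log2(FPKM + 1), and genes averaging 1 FPKM or more were tested with limma 3.58.1 (R 4.3.3; trend option of eBayes, all 9 libraries in one fit, Benjamini-Hochberg adjustment). Tables and figures were made with Python 3.11.15, pandas 2.3.3, numpy 2.4.6 and matplotlib 3.10.9. The 10 genes, the pathway lists and the markers were chosen with earlier results of these data known. The pathway genes named are those past the threshold in a comparison and the 2 most abundant of each list. Aim2 falls under the latter, and Il1r1 and Adgre1 were added after their values were seen. For the genes most like Il1rn and Il1b, the 5 smallest root mean square differences were taken. Some genes that these rules cover are not reported here.

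Depth was estimated from low values of 2795 genes, as the depth that brought them closest to whole fragment numbers. At that depth, 80.3% of the values lay within 0.25 of a whole number. For a depth fixed in advance this would be 50% by chance, but here the depth was fitted to the same values, so it is approximate. On simulated data with 11161 genes, limma recovered 187 of 200 genes changed by a log2 of 1, with 8 false calls, and 140 of 200 changed by 0.6, with 7. The simulated noise was independent between genes, with no shift shared within a library, so these figures need not hold for the libraries here. No 2 libraries of a group were copies, as at most 0.704% of values were identical. Alternatives tried were quantile normalization, rescaling by the median of ratios, a filter at 5 FPKM or none, pseudocounts of 0.1 and 0.01, a replicate block, eBayes without trend, the 6 libraries compared alone, and leaving out each library.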

Additional observations from a re-analysis of the deposited data

How the results depend on the processing

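For the 10 genes, the count past the threshold at 100 µg/ml against control was 1, and 0 with only the 6 libraries compared and between 0 and 1 when single libraries were left out. At 100 against 10 µg/ml it was 0, and 1 (Il1rn) with a pseudocount of 0.1 or 0.01, a filter at 5 FPKM, quantile normalization or median-of-ratios rescaling. For the further pathway genes it was 4 and 3 in these comparisons, 2 and 0 with only the 6 libraries compared, and 3 to 6 and 1 to 4 when single libraries were left out. At 10 µg/ml against control the counts of both sets were 0 in every fit. Over all genes, 236 passed at 100 µg/ml against control, 22 with only the 6 libraries and 31 (without control replicate 2) to 539 (without high dose replicate 1) when single libraries were left out. Between the doses 95 passed, 6 with only the 6 libraries and 8 (without low dose replicate 1) to 191 (without high dose replicate 1). At 10 µg/ml 0 passed, and up to 4 in the other fits. The causes were not tested.

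The correlation of deviations was -0.09 to 0.15 between libraries with the same replicate number, and -0.17 to 0.14 between numbers. Weak correlations over so few pairs cannot decide whether the numbers pair the libraries, and the labels do not say so. With a replicate block, 1 of the 10 genes passed at 100 µg/ml against control and 0 in the other comparisons, 3 and 2 pathway genes passed in the comparisons above, Rela (adjusted p = 0.0864) and Icam1 between the doses (adjusted p = 0.0867) being lost in limma, and 106 and 13 of all genes.

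Small fold changes turned direction when single libraries were left out. Against control at 100 µg/ml the log2 ranges were -0.321 to 0.071 for Il18, -0.085 to 0.044 for Gsdmd, -0.072 to 0.015 for Nek7, -0.050 to 0.124 for Il18rap, -0.179 to 0.0015 for Naip2, -0.054 to 0.0086 for Casp8, -0.016 to 0.198 for Ninj1, -0.012 to 0.027 for Ctsb, -0.101 to 0.026 for Ctsl and -0.033 to 0.147 for Ccl3. At 10 µg/ml they were -0.351 to 0.042 for Il18, -0.179 to 0.121 for Nlrp3 and -0.083 to 0.051 for Gsdmd, and between the doses -0.100 to 0.151 for Il18 and -0.089 to 0.058 for Gsdmd. Ctsl was at 0.052 under quantile normalization. None of these passed in any fit. The log2 differences of Il1b, Il1rap and Pycard grew with a smaller pseudocount, and their depth of about 0 to 47.2 fragments per library limits them.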
